A study of Rattus norvegicus with 20 samples.

Results

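The genes described here rose in the ventral subiculum after the preconditioning protocol while their mean in the dorsal subiculum stayed near its control level. They were picked from the deposited counts by fixed limits on CPM, a gene's count divided by the total of its library and multiplied by 1000000. A gene had to average at least 1 CPM over the 20 libraries, and its lowest ventral value after preconditioning had to lie above its highest ventral control value. Its ventral mean had to be at least 1.5 times that of the controls, and its dorsal mean between 0.8 and 1.25 times that of the dorsal controls. These limits were met by 80 of 32883 gene IDs, and 13429 IDs reached the level of 1 CPM.

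The tissue came from wild-type Wistar rats aged 3 months. The 4 groups of 5 libraries were dorsal control, ventral control, dorsal preconditioning and ventral preconditioning, the treated groups being sampled 24 hours after the protocol. By the title of the series, the protocol evoked acute seizures by stimulating the perforant pathway electrically. The labels say neither whether control rats carried an electrode nor how many animals gave the libraries, so the spread between libraries may be technical and the adjusted p-values measure only that spread. Total counts ranged from 3087146 in ventral control 1 to 20463678 in ventral control 4, and 3 counts therefore stood for 0.147 to 0.972 CPM.

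The subiculum is the main output field of the hippocampus. It receives input from CA1 and from the entorhinal cortex through the perforant path and projects to cortical and subcortical targets. Its dorsal part is linked mainly to spatial memory and its ventral part to emotional and stress responses. Preconditioning is the general name for a mild insult that lessens the damage done by a later and more severe one. A seizure is known to induce a first wave of activity-dependent transcription within minutes to hours, followed by slower changes in neurons and glia that can still be seen a day later.

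The files give genes as Ensembl rat IDs and do not pair them with names. None of the IDs could be matched to the reference table used here (0 of 32883), so the roles of the genes, their positions, their promoters and the cell types they mark were not analysed here. Whether an ID shares reads with a near-identical copy or an overlapping gene was also not analysed here. The tissue consisted of many cells of several types, and a higher level from more cells of a type cannot be told apart from more RNA per cell.

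Several libraries stood apart from the others before any choice of genes. Over the 13429 genes, the mean log2(CPM + 0.5), set to 0 at the ventral control mean, lay between -0.133 and 0.117. The lowest values were those of ventral control 2 (-0.133), dorsal control 4 (-0.124) and dorsal control 2 (-0.111), and the highest was that of dorsal preconditioning 2 (0.117). Without ventral control 2, 102 genes met the limits and 71 of the 80 were among them. Without dorsal control 4, 82 met them, with 70 of the 80. Without dorsal preconditioning 2, 89 met them, with 72 of the 80.

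Complete separation of the ventral groups, with every treated library above every control, was found for 455 genes, or 3.39% of the 13429. All ventral limits together were met by 246 genes, or 1.83%. Of these, 80 (32.5%) had a dorsal ratio between 0.8 and 1.25, 165 had a higher dorsal ratio and 1 a lower one. Among all genes with at least 1 CPM, 83.3% had a dorsal ratio within those limits. Genes that rose in the ventral subiculum thus lay above the dorsal limits more often than inside them, and the 80 genes form the smaller portion of the ventral rise. The 166 genes outside the limits had a median ventral ratio of 2.34 and a median dorsal ratio of 1.59. The 80 genes had medians of 1.79 and 1.096.

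**Figure D1:**
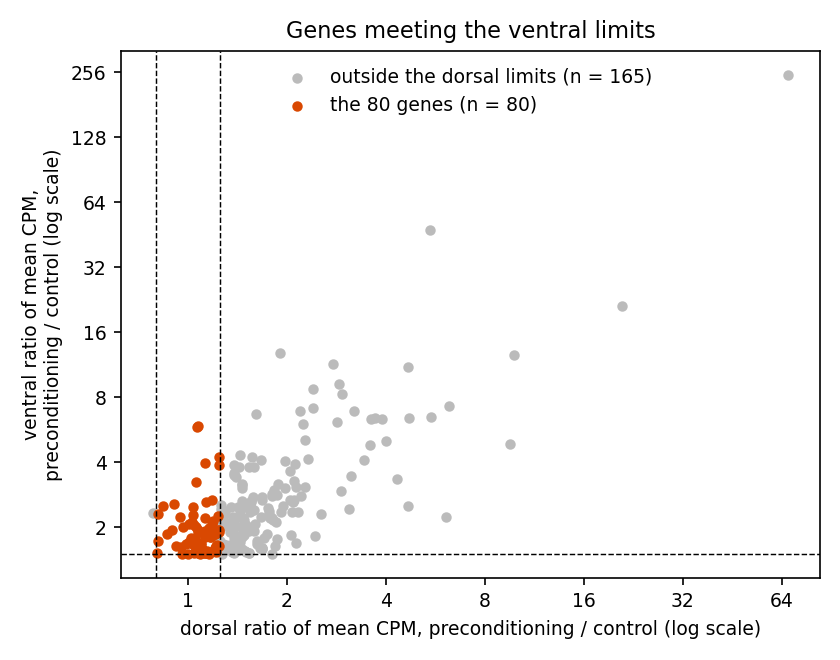
Ratio of mean CPM after preconditioning to control in the dorsal (x axis) and ventral (y axis) subiculum, both on log scales, for genes meeting the ventral limits. Dashed lines mark the limits of 0.8, 1.25 and 1.5; the 80 genes (orange) fill the lower left, most grey genes lie to their right, and 1 gene listed at 0 in dorsal controls is not drawn.

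The rise of the 80 genes was mostly moderate. Their ventral ratio ran from 1.502 to 5.89, with 58 genes below 2, 22 at 2 or more and 6 at 3 or more. Their level was like that of other genes, with a median of 19.98 CPM over all libraries against 24.6 CPM for the 13429 genes. The range was wide, from 1.25 to 1198 CPM. A mean below 5 CPM was found for 20 genes, 44 lay from 5 up to 100 CPM, and 16 reached 100 CPM or more. For 19 genes the lowest library held fewer than 10 counts, so their values carry a large counting error.

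Genes close to the limits differed little on either side. Just inside the ventral limit the ratios were 1.502 and 1.503, and just outside 1.499 and 1.487. At the lower dorsal limit they were 0.807 and 0.813 inside and 0.784 for the single gene outside. At the upper dorsal limit they were 1.246 on the inside for both nearest genes, and 1.256 and 1.258 outside. A ventral ratio within 10% of the limit was found for 30 of the 80 genes.

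A level for the whole set was taken as the mean log2(CPM + 0.5) over the 80 genes, with the ventral control mean set to 0. The ventral controls measured -0.0329, -0.0296, -0.0243, 0.112 and -0.0249 (numbers 1 to 5). After preconditioning the ventral libraries measured 0.896, 0.826, 0.929, 0.893 and 0.663. All 80 genes lay above their ventral control mean in each of these 5 libraries, as the limits require of them. The smallest rise was that of ventral preconditioning 5.

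By this level the set stood higher in the dorsal subiculum from the start. The choice favoured low ventral controls and so tilts this difference. The dorsal controls measured 0.598, 0.597, 0.493, 0.634 and 0.412, and the dorsal preconditioned libraries 0.693, 0.711, 0.658, 0.682 and 0.555. The dorsal groups overlapped, with a mean difference of 0.113, where the same difference over all 13429 genes was 0.0839. Every dorsal library, treated or not, lay above every ventral control by this level. By the sum of their CPM this did not hold, as dorsal control 5 (4484) lay below ventral controls 1 to 4 (4551 to 4731). The means were 0.547 ± 0.0918 in dorsal controls, 0.660 ± 0.0616 in dorsal preconditioned and 0.841 ± 0.106 in ventral preconditioned libraries (SD, n = 5 each).

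**Figure D2:**
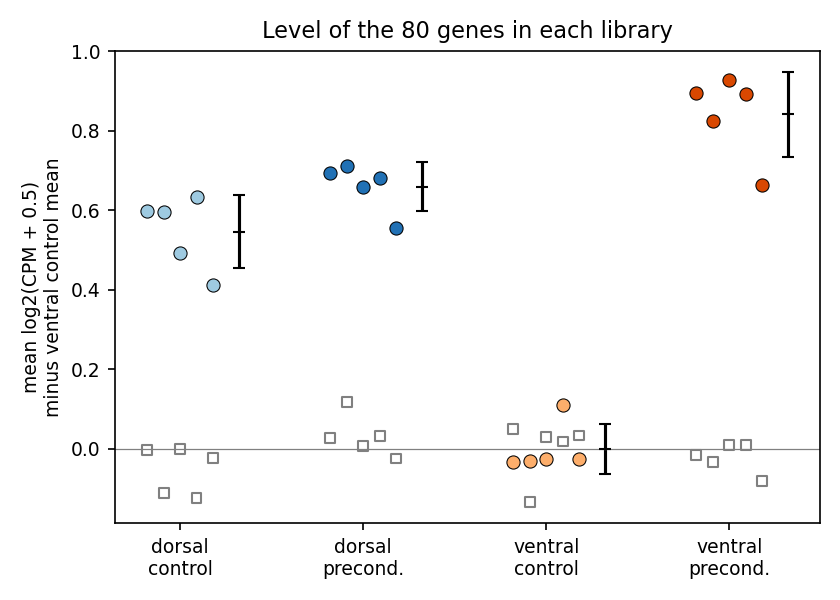
Mean log2(CPM + 0.5) of the 80 genes in each of the 20 libraries relative to the ventral control mean (circles; bars give mean ± SD of 5), with the same mean over the 13429 genes (open squares). The dorsal libraries lie between 0.412 and 0.711, the ventral controls at 0.112 or lower, and the ventral preconditioned libraries between 0.663 and 0.929.

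The counts of called genes below come from edgeR's quasi-likelihood test on all genes, with a Benjamini-Hochberg adjusted p-value under 0.05. Both treatment contrasts and their difference had been used to choose the genes, so these counts describe the set and test nothing about it. In the ventral subiculum 79 of the 80 genes passed the filter on low counts, and 67 were called higher, against 2.93% of all genes tested. Their median log2 fold change was 0.85. In the dorsal subiculum 0 of 79 genes were called, where 0.271% of all genes tested were called. Without adjustment 2 of them had a p-value under 0.05, against 8.11% of all genes tested. DESeq2 and limma-voom also called 0, where they called 1.24% and 1.26% of all genes tested. Without adjustment, 5 genes of the set had a p-value under 0.05 with DESeq2 and 12 with limma-voom.

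A dorsal mean within the limits does not show that a gene held its level. For each gene a 95% interval of the dorsal log2 fold change was computed from the edgeR estimate and its standard error. It lay wholly within the limits of 0.8 and 1.25 for 7 of 79 genes. It reached a 1.5-fold rise for 22 of them, the same size as the limit set on the ventral rise. The median interval ran from -0.30 to 0.44 on the log2 scale.

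Inside the dorsal limits the genes leaned upward. The choice had used the dorsal ratio, so the counts that follow only describe the set. The dorsal ratio was above 1 for 66 of the 80 (82.5%) and below 1 for 14, whereas 59.7% of the 11182 genes within the same limits had a ratio above 1. For 39 of the 80 it exceeded 1.1. The 66 became 58 with TMM-adjusted CPM, and 58 with medians in place of means. The share over all genes under those settings is not given here, so whether the lean exceeds it there is not shown. The dorsal preconditioned libraries all lay above the dorsal controls for 1 gene, against 1.69% of genes with at least 1 CPM, and all lay below them for 0 genes.

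The gene with the largest ventral ratio was ENSRNOG00000016696. Its ventral controls measured 0.324, 0.477, 0.325, 0.440 and 0.529 CPM, and its ventral preconditioned libraries 3.01, 3.64, 2.13, 2.41 and 1.14 CPM. The dorsal controls measured 0.912, 1.12, 1.29, 0.933 and 2.20 CPM, and the dorsal preconditioned libraries 1.62, 1.08, 0.734, 2.46 and 1.06 CPM. The dorsal groups overlapped throughout and lay above all ventral controls, while of the ventral preconditioned libraries only numbers 1 and 2 exceeded every dorsal one. The ventral control values rested on 1 to 9 counts per library, and the ratio of 5.89 is accordingly imprecise.

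ENSRNOG00000012481 followed with a ventral ratio of 5.80. It measured 0.972, 0.0954, 0.325, 0.977 and 0.176 CPM in ventral controls, and 3.12, 2.65, 3.92, 2.54 and 2.54 CPM in the ventral subiculum after preconditioning. Dorsal controls held 4.26, 1.37, 2.80, 4.04 and 2.76 CPM, and dorsal preconditioned libraries 2.24, 5.17, 2.64, 2.32 and 3.83 CPM. Here the ventral control group was the low one, and the treated ventral libraries lay inside the span of the dorsal libraries. The ventral control values rested on 1 to 20 counts.

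The difference between the ventral and the dorsal response was estimated as an interaction over all 20 libraries. Of the 80 genes 5 were called, all with the larger rise in the ventral region, against 0.071% of all genes tested. In all, 10 genes were called in that direction. The other 5 were outside the set because 4 had a dorsal ratio above the limits and 1 below them. The number depended on the fit: 22 of the 80 were called with a replicate block for same-numbered libraries (0.440% of all genes tested), 23 with DESeq2 (0.390%) and 27 with limma-voom (0.7099%). The 5 genes were among those called in each of these fits. The median interaction over the 80 genes was 0.78 on the log2 scale. The count of 5 became 3 without any 1 of 10 libraries (dorsal control 1 or 2, ventral control 3 or 5, dorsal preconditioning 1, 3 or 5, ventral preconditioning 1, 3 or 4). Those fits called 0.0422% to 0.0564% of all genes tested, in either direction, against 0.0781% with all 20 libraries. The count became 8 without dorsal control 3 (0.120% of all genes tested) and 9 without ventral preconditioning 5 (0.141%). The count of the 80 genes thus moved with the calls over all genes.

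ENSRNOG00000021046 had the largest interaction of the 5, at 1.59 (SE 0.23, log2). The ventral controls measured 17.5, 10.8, 9.26, 11.7 and 14.3 CPM, and the ventral preconditioned libraries 45.5, 26.1, 33.0, 33.8 and 23.5 CPM. Dorsal controls measured 12.2, 13.1, 11.0, 12.4 and 13.3 CPM, and dorsal preconditioned libraries 12.4, 13.3, 10.3, 10.7 and 9.86 CPM. The regions overlapped in controls, and the treated ventral libraries stood alone above the other 15. This gene kept its interaction call under all 25 alternatives run.

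ENSRNOG00000046829 moved in opposite directions by its means, with an interaction of 1.21 (SE 0.23, log2). It measured 7.77, 5.63, 6.99, 4.79 and 6.97 CPM in ventral controls and 12.2, 13.6, 10.2, 10.7 and 8.86 CPM in ventral preconditioned libraries. In dorsal controls it measured 10.2, 9.99, 8.27, 8.71 and 8.41 CPM, and in dorsal preconditioned libraries 6.46, 9.26, 7.34, 8.63 and 5.38 CPM. The dorsal groups overlapped, and the dorsal change was not called. Its interaction call was lost without any 1 of 13 libraries, with estimates from 1.103 to 1.248, and with no filter on low counts, with an estimate of 1.21. It was kept without dorsal control 3, 4 or 5, ventral control 1, dorsal preconditioning 2 or 4, or ventral preconditioning 5. The remaining 3 called genes had interactions of 0.80, 0.76 and 0.75.

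**Figure D3:**
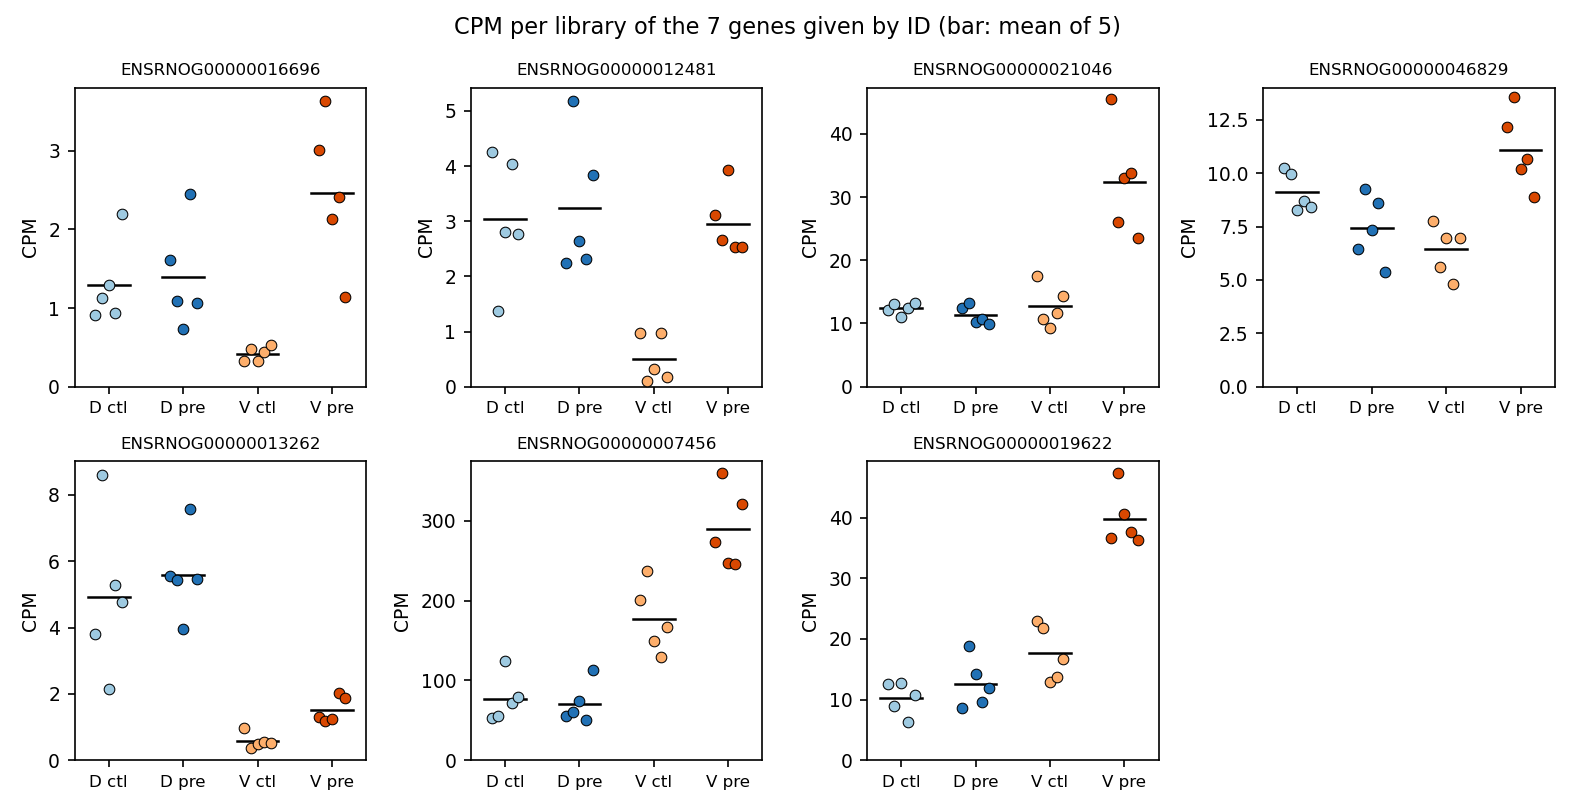
CPM in each library for the 7 genes given by ID (D, dorsal; V, ventral; ctl, control; pre, preconditioning; horizontal bar, mean of 5; each axis starts at 0). In every panel the 5 treated ventral libraries lie above the 5 ventral controls, while the dorsal groups overlap.

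All 20 libraries took part in the choice of the genes, so the rise was also read in libraries that had been left out of it. The 4 libraries of one number were set aside, the limits were applied to the other 16, and the genes so chosen were read in the 4. This was done for each of the 5 numbers and chose 88, 122, 97, 98 and 120 genes, of which 54, 63, 64, 67 and 60 were among the 80. Fewer libraries make the limit on overlap easier to meet, which by itself adds genes.

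In the left-out ventral pair, the median log2 difference between preconditioning and control was 0.72, 0.63, 0.78, 0.65 and 0.39 for numbers 1 to 5. Over all genes with at least 1 CPM it was -0.061, 0.070, -0.029, -0.020 and -0.12. The chosen genes were higher after preconditioning in 88.6%, 88.5%, 90.7%, 90.8% and 76.7% of cases, and all genes in 43.4%, 58.9%, 46.6%, 47.4% and 38.7%. The ventral rise therefore appeared in each left-out pair, at a smaller size in number 5, where all genes were also shifted down. With choice and reading on TMM-adjusted CPM, the medians were 0.78, 0.54, 0.80, 0.66 and 0.49. Those of all genes were then -0.015, 0.017, -0.0059, 0.0097 and -0.018. Number 5 was still the lowest, but close to number 2.

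In the left-out dorsal pair, the same genes were not level. Their median log2 difference was 0.19, 0.23, 0.26, 0.17 and 0.22, against 0.029, 0.17, 0.018, 0.047 and -0.011 over all genes. In numbers 1, 3, 4 and 5 the chosen genes lay above the general shift by 0.1 or more, and in number 2 the values were close. With CPM on TMM-adjusted library sizes the selection was repeated too and chose 119, 165, 133, 122 and 155 genes. Their dorsal medians were 0.16, 0.029, 0.30, 0.12 and 0.24, with all-gene medians between -0.025 and 0.010, so both the scaling and the genes differ from those above. Without that adjustment, the ventral difference exceeded the dorsal one by a median of 0.50, 0.30, 0.53, 0.50 and 0.20. Over all genes this median was -0.081, -0.11, -0.043, -0.094 and -0.11. With the adjustment it was 0.59, 0.44, 0.50, 0.57 and 0.29 for the chosen genes. Over all genes it then lay between -0.034 and 0.018. No test was made on these medians, because the 5 selections share most of their libraries.

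**Figure D4:**
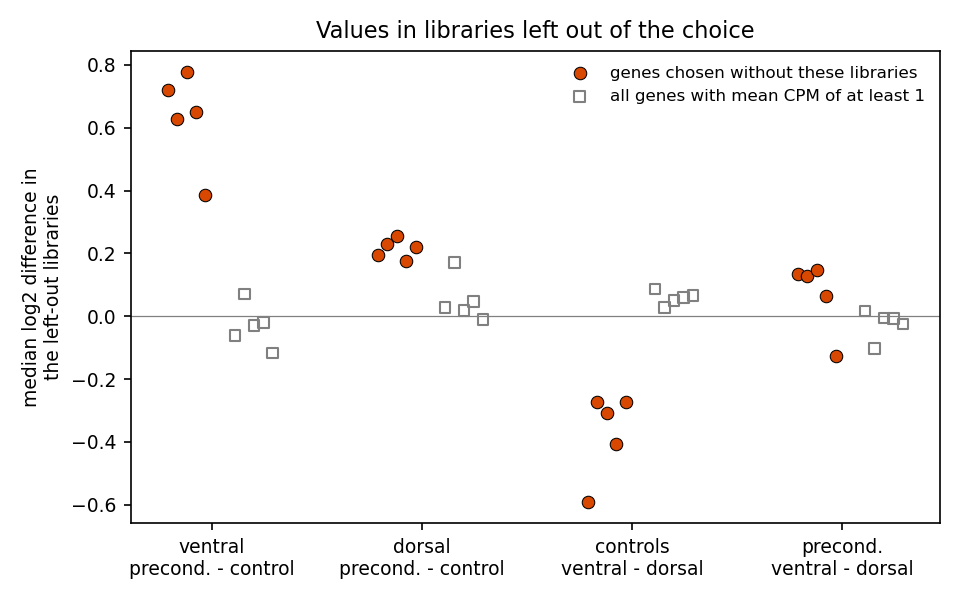
Median log2 difference in the 4 libraries left out of the choice, 1 point for each of the 5 numbers, for the genes chosen without them (circles) and for all genes with at least 1 CPM (open squares). The chosen genes lie at 0.39 to 0.78 for the ventral treatment, 0.17 to 0.26 for the dorsal treatment, -0.59 to -0.27 for the regions in controls and -0.13 to 0.15 after preconditioning.

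The regions were next compared within each condition. In controls 62 of the 80 genes (77.5%) had a lower mean in the ventral than in the dorsal subiculum, where 42.2% of all genes with at least 1 CPM did. After preconditioning 28 genes were lower in the ventral region and 52 higher, where 51.8% of all genes were lower. The choice favoured low ventral controls and high treated ventral values, so it tilts both counts, and no p-value is given for them. The 166 genes that met the ventral limits with a dorsal ratio outside 0.8 to 1.25 had been chosen on the same ventral values. Of those 71 (42.8%) were lower in ventral controls. They differ from the 80 genes by their dorsal ratio, which also rests on the dorsal controls.

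Libraries left out of the choice gave the same direction in controls. There the genes chosen without them had a median log2 difference, ventral minus dorsal, of -0.59, -0.27, -0.31, -0.41 and -0.27 for numbers 1 to 5. Over all genes it was 0.086, 0.028, 0.051, 0.059 and 0.066. The chosen genes were lower in the ventral control in 76.1%, 64.8%, 76.3%, 72.4% and 69.2% of cases. After preconditioning the medians were 0.13, 0.13, 0.15, 0.066 and -0.13, so the lower ventral level was no longer present in 4 of the 5 left-out pairs.

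The 80 genes fell into 3 classes by where their ventral mean lay relative to the dorsal one. In 34 genes it was below the dorsal mean in controls and above it after preconditioning, against 6.84% of all genes with at least 1 CPM. The median ratio of ventral to dorsal mean in this class went from 0.810 to 1.247. In 28 genes the ventral mean stayed below the dorsal one, with median ratios of 0.398 in controls and 0.654 after preconditioning. In 18 genes it was above in both conditions, with median ratios of 1.21 and 1.84. No gene (0) went from above to below, which the limits do not allow. The limits make the ventral mean rise relative to the dorsal one in all 80 genes. Upward crossings and rising median ratios are therefore built into the choice, and these counts only describe the set.

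For 44 of the 80 genes the ventral mean lay nearer to the dorsal mean after preconditioning than in controls, on the log scale, and for 36 it lay farther away. Levels within 1.5-fold of the dorsal mean were found for 39 genes in controls and 47 after preconditioning. As the limits raise the ventral mean relative to the dorsal one, genes already above the dorsal mean had to move away. The same counts over all genes are not given here, so these only describe the set.

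**Figure D5:**
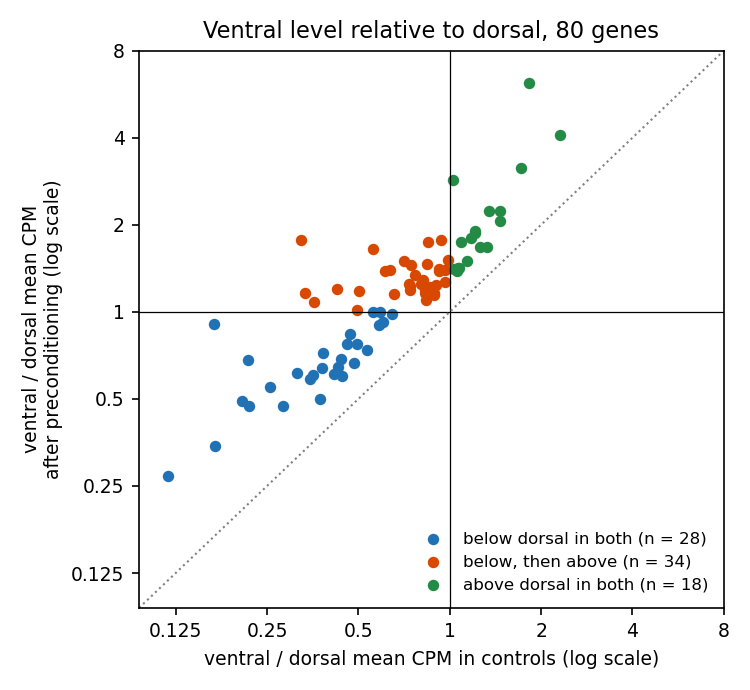
Ratio of the ventral to the dorsal mean CPM in controls (x axis) and after preconditioning (y axis), log scales, 1 point for each of the 80 genes (dotted line, equal ratios). Of the 62 genes left of the vertical line at 1, 34 lie above the horizontal line at 1 and 28 below it.

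In edgeR's test between the regions, fitted without a replicate block, 77 of the 80 genes were tested in controls. Of them 37 were called lower in the ventral region, against 14.5% of all genes tested, and 7 were called higher, against 11.2%. With the block, 43 were called lower and 7 higher. That fit called 36.4% of all genes tested in either direction, against 25.7% without the block. After preconditioning all 80 were tested, 14 were called lower (14.7% of all genes tested) and 30 higher (12%). Of the 37 genes called lower in controls, 14 were still called lower after preconditioning, 20 were not called and 3 were called higher. All 7 genes called higher in controls were called higher again. Of the 36 genes not called or not tested in controls, 20 were called higher after preconditioning and 16 were not called. The choice favoured low ventral controls and high treated ventral values, so it tilts all of these counts. They describe the set and test nothing about it.

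Counts without a model were also taken, and the choice tilts them in the same way. In controls all 5 ventral libraries lay below all 5 dorsal libraries for 33 of the 80 genes, against 9.31% of genes with at least 1 CPM, and above them for 8, against 9.84%. After preconditioning all ventral libraries lay below for 10 genes, against 11.9%, and above for 19, against 7.33%.

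Of the genes called lower in ventral controls, ENSRNOG00000013262 had the largest difference, with a log2 fold change of -3.23 (SE 0.41). Dorsal controls measured 3.80, 8.61, 2.16, 5.29 and 4.77 CPM, and ventral controls 0.972, 0.382, 0.488, 0.538 and 0.529 CPM. After preconditioning the dorsal libraries measured 5.56, 5.42, 3.96, 7.56 and 5.46 CPM and the ventral ones 1.29, 1.17, 1.23, 2.03 and 1.87 CPM. The ventral libraries stayed below all dorsal ones after their rise, with a regional log2 fold change of -1.86 (SE 0.24). The ventral control values came from 3 to 11 counts per library, and the highest, in ventral control 1, from 3 counts. ENSRNOG00000012481, described above, came next with -2.64 (SE 0.48) in controls and -0.12 (SE 0.26) after preconditioning, so its regional difference was near 0 in the treated libraries.

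Of the genes called higher in ventral controls, ENSRNOG00000007456 differed most, with a log2 fold change of 1.17 (SE 0.23). Ventral controls measured 201, 237, 149.8, 129.5 and 167 CPM and ventral preconditioned libraries 273, 359.5, 247, 246 and 321 CPM. Dorsal controls measured 52.9, 55.2, 124, 71.8 and 78.6 CPM and dorsal preconditioned libraries 55.6, 60.8, 74.4, 50.0 and 113 CPM. A gene already stronger in the ventral region rose further there, and the regional log2 fold change after preconditioning was 2.06 (SE 0.21). Its ventral treatment call was lost without any 1 of ventral control 1, 3, 4 or 5 or ventral preconditioning 2 or 5, with estimates from 0.63 to 0.77.

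ENSRNOG00000019622 came next, with 0.71 (SE 0.22) in controls and 1.70 (SE 0.18) after preconditioning. It measured 23.0, 21.8, 12.8, 13.8 and 16.7 CPM in ventral controls and 36.7, 47.3, 40.7, 37.6 and 36.3 CPM in ventral preconditioned libraries. Dorsal controls held 12.6, 8.86, 12.7, 6.32 and 10.7 CPM and dorsal preconditioned libraries 8.62, 18.9, 14.2, 9.56 and 11.9 CPM. Every ventral control exceeded every dorsal control by these values, although the gap was narrow. The call in controls was lost without any 1 of dorsal control 2 or 5 or ventral control 1 or 2, and with limma-voom, with estimates from 0.40 to 0.72.

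Dorsal and ventral control libraries of the same number deviated from their group means together, so the regional difference was also taken within numbers. In controls the median log2 difference over the 80 genes, ventral minus dorsal, was -0.55, -0.50, -0.38, -0.48 and -0.25 for numbers 1 to 5. After preconditioning it was 0.34, 0.33, 0.32, 0.19 and 0.14. The labels do not say whether treated libraries of the same number share more than that number. Their deviations correlated at r 0.021 to 0.444, and all 20 libraries had taken part in the choice. The sign was negative in all 5 control pairs and positive in all 5 treated pairs. Over all genes the medians were 0.086, 0.028, 0.051, 0.058 and 0.066 in controls. After preconditioning they were 0.017, -0.10, -0.0056, -0.0072 and -0.024. The number of the 80 genes lower in the ventral library was 60, 60, 61, 63 and 52 in controls and 26, 32, 23, 30 and 37 after preconditioning. The same counts over all genes are not given here. The choice favoured low ventral controls and high treated ventral values, so it tilts these signs and counts.

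The most abundant of the 80 genes averaged 1138 ± 48.1 CPM in ventral controls and 1752 ± 169.9 CPM in ventral preconditioned libraries (SD, n = 5 each). Its dorsal means were 856 ± 90.9 CPM in controls and 1047 ± 68.1 CPM after preconditioning, a ratio of 1.22. Together the 80 genes held between 4438 and 4731 CPM in the ventral controls and between 7041 and 8314 CPM in the ventral preconditioned libraries. Their sum lay between 4484 and 5423 CPM in dorsal controls and between 5316 and 5823 CPM in dorsal preconditioned libraries. On this sum, which the abundant genes dominate, the ventral treated libraries exceeded all other libraries.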

How the data were processed

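RNA from laser-microdissected dorsal and ventral subiculum was sequenced as stranded poly(A) libraries (TruSeq Stranded mRNA LT), per the labels' protocols. The authors deposited raw counts per Ensembl gene ID. The submitters' processing notes list STAR, DESeq2 and the build Rnor_5.0, without roles; the counting tool and strand setting are not given in the sources used here. Column names of treated libraries start with e and their titles with p. They were matched by number and region, on the assumption that e and p stand for one treatment.

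The genes and lists were chosen with earlier results of these data known. Membership used CPM on raw column sums. Tests used edgeR 4.0.16 in R 4.3.3 (filterByExpr, TMM, glmQLFit with robust=TRUE, glmQLFTest), each comparison on its own 10 libraries and the interaction on 20. SE is the log2 fold change divided by the square root of F. The script was tested on simulated data. The 95% intervals of dorsal changes rest on the spread between libraries, and the CPM given for 3 counts covers counting error only.

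The naming rule, set on symbols, lists and levels, allowed 2 genes without a symbol. As 0 IDs matched 47357 reference genes (GRCr8), the lists, marker genes and promoter motifs were not used. IDs are given for 2 genes per comparison and direction: the largest ventral ratios, interactions, and regional differences in controls among called genes. Those beyond 2 were chosen after their values were seen. Alternatives were DESeq2 1.42.0, its size factors in edgeR, no filter, a replicate block, limma-voom 3.58.1, each library left out, and other limits. Same-numbered dorsal and ventral controls deviated together (r 0.240 to 0.433 in 5 pairs), which meets the limit for pairing. The values printed come from fits without the block, and the blocked fit is an alternative. For the treatment contrasts within a region, the block joined control and treated libraries of the same number, which no label links. No other set of pairs had every r above 0.1.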

Additional observations from a re-analysis of the deposited data

Results flagged for a closer look

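Values of the 7 genes given by ID and of the set's mean level were searched in each group for a library far from the rest, by Dixon's ratio at the 95% level. Among the 32 sets of 5 values searched, 2 did, and about 1.6 would by chance. The mean log2 level of the 80 genes was 0.112 in ventral control 4, and the 4 remaining ventral controls held -0.0329 to -0.0243. That library thus lay toward the dorsal libraries, which held 0.412 to 0.711, and 79 of the 80 genes were still chosen without it. ENSRNOG00000013262 measured 0.972 CPM in ventral control 1, from 3 counts, where the 4 remaining ventral controls held 0.382 to 0.538 CPM.

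For 5 of the 80 genes the ventral and dorsal responses differed by edgeR's interaction test, a contrast that the choice of genes had used. There were 22 with a replicate block, 23 with DESeq2 and 27 with limma-voom, and 3 with no filter on low counts. The log2 differences of the 5 were 1.59 for ENSRNOG00000021046, 1.21 for ENSRNOG00000046829, and 0.804, 0.762 and 0.747 for the remaining 3.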

How the results depend on the processing

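The size of the set depends on its limits. It was 22 with a ventral ratio of at least 2, 36 with a dorsal ratio from 9/10 to 10/9 and 148 from 2/3 to 3/2. With TMM-adjusted CPM it was 102, of which 74 were among the 80, with medians 85 (60 shared), and with a mean of at least 5 CPM 60. Leaving out libraries gave 68 to 122, the highest without the 4 libraries of number 2. Members called in the interaction were 23 with DESeq2, 27 with limma-voom, 3 with no filter and 22 with a replicate block that paired same-numbered regions, against 5, and 3 to 9 with a library left out; the cause was not tested. The 5 genes were among the 23, the 27 and the 22. Of all genes tested, the interaction fits called 0.0422% to 0.141% with a library left out and 0.0368% with no filter. Ventral calls were 56 to 69 with a library left out, where 3.24% to 7.71% of all genes tested were called. They were 70 with a block that joined ventral control and treated libraries of the same number, which no label links. In that fit 9.49% of all genes tested were called, against 5.06% without the block. Regional calls were 39 to 45 in controls and 38 to 47 after preconditioning with a library left out. With the block of same-numbered regions they were 50 in each. Of all genes tested, that block called 36.4% in controls and 30.7% after preconditioning, against 25.7% and 26.7% without it. Dorsal calls stayed at 0 in all alternatives run, where 0.109% to 1.26% of all genes tested were called. The choice had used the dorsal means, so these counts only describe the set. The left-out ventral value, 0.65 as the median of 5, stayed within its spread. The dorsal one, 0.22, became 0.16 with TMM-adjusted CPM. The count of 62 genes lower in ventral controls was 59 to 63 with a library left out, and the 66 with a dorsal ratio above 1 were 61 to 68. Of 580 alternative values for the genes given by ID, 0 reversed a call, 28 lost and 11 gained one. Depth limits the 19 genes with fewer than 10 counts in a library. The counts of motifs planned in promoters were not run.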

Other observations

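Number 5 was the lowest library for the set's mean level in 3 of the 4 groups: 0.412 in dorsal controls, 0.555 in dorsal preconditioned and 0.663 in ventral preconditioned libraries. Over the 13429 genes it was also the lowest among dorsal (-0.0241) and ventral preconditioned libraries (-0.0802). Among dorsal controls number 4 was the lowest over those genes (-0.124), and number 5 measured -0.0235. Number 5 also gave the smallest ventral rise in left-out libraries, 0.39, where the median of all genes was -0.12. With TMM-adjusted CPM the rise in number 5 was 0.49, close to the 0.54 of number 2. The labels do not say what the numbers share.

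Of the 80 genes, 31 were chosen in each of the 5 selections that left out one number.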
